A study of Mus musculus with 16 samples.

Results

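Integrins are cell surface receptors made of an alpha and a beta subunit. Here 9 subunits that bind extracellular matrix, Itga1, Itga2, Itga5, Itga10, Itga11, Itgav, Itgb1, Itgb3 and Itgb5, were followed in bulk RNA-seq of mouse knee joint cells. They were chosen by name, and 9 of 9 were among the 13733 genes listed. The 16 libraries came from 4 groups of 4 C57BL/6 mice: WT D0 and Trem2-/- D0 (uninjured), and WT D7 and Trem2-/- D7 (7 days after rupture of the anterior cruciate ligament by a single tibial compression). Trem2-/- mice carry the Trem2em2Adiuj knockout in every cell. Trem2 is a surface receptor of macrophages and other myeloid cells. The mice were males, injured at 10 weeks of age. The labels also carry an age of 16 weeks and a protocol for homogenized joints of control and T1DM mice, while the methods describe released cells, so the source material is uncertain. Whether cells were enriched for CD45, the leukocyte surface protein, is not stated.

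Integrins hold cells to the matrix and carry force and signals across the membrane. In the joint, the alpha subunits Itga1, Itga2, Itga10 and Itga11 each pair with Itgb1 to form a collagen receptor. Itga5 pairs with Itgb1 to form the main fibronectin receptor, and Itgav pairs with Itgb1, Itgb3 or Itgb5 to bind vitronectin, osteopontin, fibronectin and latent TGF-beta. Inside the cell, talins and kindlins bind the beta tail and link it to actin.

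The number of reads per library was 11567073 to 32867818 (median 16399898), and 3 reads corresponded to 0.101 to 0.250 CPM (normalized read counts that make libraries of different depth comparable). All 9 subunits lay above that in every library. Trem2 was at 2.51 to 5.61 CPM in WT D0, 10.7 to 22.5 CPM in WT D7, 0.948 to 2.68 CPM in Trem2-/- D0 and 3.42 to 4.84 CPM in Trem2-/- D7, so the genotypes overlapped at D0 and not at D7. The cell mixture differed between days. Of 8 fibroblast genes (Pdgfra, Pdgfrb, Dcn, Lum, Col1a1, Col1a2, Thy1, Fap), 7 were called higher at D7 in each genotype. Their summed level ran from 4680 to 36844 CPM in WT D0, 54225 to 91194 in WT D7, 4396 to 8392 in Trem2-/- D0 and 64573 to 101700 in Trem2-/- D7. The 6 chondrocyte genes were all called higher in both genotypes. Leukocyte genes went down, 5 of 6 being called lower in WT and 6 of 6 in Trem2-/- mice, with summed levels of 2093 to 4293 CPM in WT D0, 1214 to 2556 in WT D7, 2653 to 4602 in Trem2-/- D0 and 902 to 1132 in Trem2-/- D7. None of the 6 endothelial genes was called in either genotype by limma, and none had an unadjusted p under 0.05 with a log2 fold change beyond 0.32. No marker of these lists was at 0 throughout. In bulk libraries, more cells of a type and more RNA per cell cannot be told apart, and the part of the cell mixture in the integrin results was not tested.

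Start regions are shown first for Itga11 and Itga1, the subunits with the largest and the smallest change. Those of Itga5 and Itgb5, whose changes lay between, follow as the regions with the most matches to GGGCGG or its reverse complement. RefSeq sequences on GRCm38.p6 covering 250 bases before and 50 bases after the start matched 8 of the 9 genes; Itgb3 had no entry. They are written 5′ to 3′ on the gene's strand, with capitals marking GGGCGG or its reverse complement (the Sp1 box). Itga11, which had the largest change after injury, is at chr9:62677605-62677904 (plus strand). Itga1, the subunit that was not called, is at chr13:115101915-115102214 (minus strand). Itga5 is at chr15:103366742-103367041 (minus strand) and Itgb5 at chr16:33829415-33829714 (plus strand).
Itga11: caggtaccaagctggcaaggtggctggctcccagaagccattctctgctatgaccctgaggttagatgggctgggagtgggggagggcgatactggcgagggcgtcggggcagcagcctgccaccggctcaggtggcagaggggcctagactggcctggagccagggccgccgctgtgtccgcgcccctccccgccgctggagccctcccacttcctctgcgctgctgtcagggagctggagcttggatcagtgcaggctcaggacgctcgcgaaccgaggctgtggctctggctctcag
Itga1: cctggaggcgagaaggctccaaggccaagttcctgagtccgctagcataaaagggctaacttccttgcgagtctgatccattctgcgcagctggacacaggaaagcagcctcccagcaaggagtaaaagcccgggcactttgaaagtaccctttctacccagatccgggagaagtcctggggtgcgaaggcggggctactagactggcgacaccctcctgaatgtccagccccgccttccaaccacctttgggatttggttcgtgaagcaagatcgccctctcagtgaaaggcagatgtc
Itga5: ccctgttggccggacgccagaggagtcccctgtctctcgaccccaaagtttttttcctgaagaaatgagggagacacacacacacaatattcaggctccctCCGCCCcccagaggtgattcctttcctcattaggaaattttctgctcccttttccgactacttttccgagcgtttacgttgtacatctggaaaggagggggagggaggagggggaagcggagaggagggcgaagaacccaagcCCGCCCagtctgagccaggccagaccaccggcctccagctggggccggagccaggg
Itgb5: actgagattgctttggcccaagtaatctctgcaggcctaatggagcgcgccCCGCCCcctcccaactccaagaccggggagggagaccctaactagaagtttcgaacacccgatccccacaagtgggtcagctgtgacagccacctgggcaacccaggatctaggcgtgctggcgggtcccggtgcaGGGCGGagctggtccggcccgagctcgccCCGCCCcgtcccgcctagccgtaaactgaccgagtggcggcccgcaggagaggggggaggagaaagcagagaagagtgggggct
The Sp1 box occurred 3 times for Itgb5, 2 times for Itga5, once each for Itga2, Itgav and Itgb1, and not for Itga1, Itga10 or Itga11. Of all 32851 RefSeq start regions of this length, 35.7% held it. Both the most and the least responsive subunit thus lacked these letters in this window. No match overlapped another. Also searched on both strands were the AP-1 site TGACTCA, held by 5.20% of all start regions, the E-box CACGTG, held by 7.15%, and the TATA motif TATAAA, held by 13.6%. None of these was in any of the 8 regions. The Itga11 region had a GC content of 68.0%, above the upper quartile of 61.7% for all start regions, whose median was 52.7%, while that of Itga1 had 56.7%.

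To see which subunits dominate, levels were compared per kilobase of exon (CPM per kb). The length was that of all annotated exons merged, 18.6 kb for Itga1 and 10.7 kb for Itgav against 5.13 kb for Itga11. Ranks depend on this length. In CPM at WT D0, Itga1 (74.0) was above Itga11 (57.3), Itgb3 (52.1) and Itga10 (43.3). Itgb1, the shared beta subunit, was highest in every group, from 157 ± 36.0 CPM per kb in Trem2-/- D0 to 357 ± 12.5 in Trem2-/- D7 (SD, n = 4 mice). Itga5 was second with 53.9 ± 9.55 to 152 ± 12.3 CPM per kb, followed by Itgb5 with 24.6 ± 6.51 to 79.3 ± 12.6. Itgb1 did not overlap Itga5 in any group. Itga2 was last in all groups, from 0.507 ± 0.166 CPM per kb in Trem2-/- D0 to 1.87 ± 0.0537 in Trem2-/- D7, with Itga1 next above it and not overlapping it. Between them the order changed with injury. In Trem2-/- D0 mice Itgav, Itgb3, Itga10, Itga11 and Itga1 each overlapped the next, between means of 8.39 and 4.03 CPM per kb. In Trem2-/- D7 mice, Itga11 had moved up to rank 4 of 9 from rank 7, at 52.7 ± 12.7 CPM per kb, where it overlapped Itgb5 above it and no longer Itgav below it. In WT mice it moved from rank 5 to rank 4, from 11.2 ± 8.45 to 31.0 ± 10.1 CPM per kb, and overlapped Itgav on both days.

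**Figure D1:**
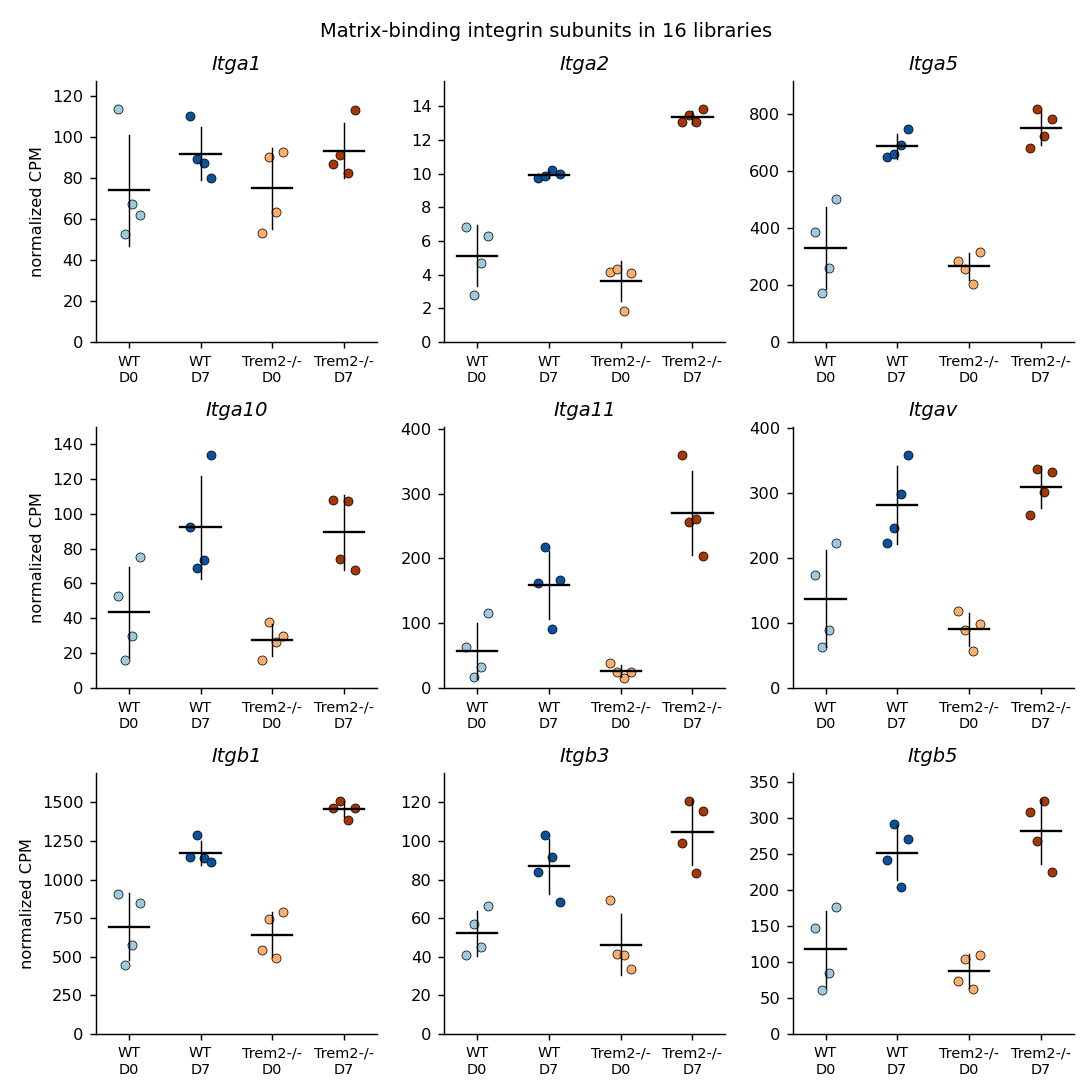
Normalized CPM (linear axis from 0, a different range in each panel) of the 9 subunits in each of the 16 libraries, by group; points are mice, horizontal bars are group means and vertical bars are SD (n = 4). Itga2 and Itgb1 at D7 lie higher in all 4 Trem2-/- mice than in all 4 WT mice, and Itga1 overlaps between all groups.

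To determine how injury affected these receptors, D7 was compared with D0 within each genotype. After injury, 8 of the 9 subunits rose in WT mice and 8 of the 9 rose in Trem2-/- mice, Itga1 being the exception in both (limma, adjusted p under 0.05 over 13173 genes). Of all genes tested, 15.9% were called higher and 12.6% lower in WT mice, and 26.0% higher and 27.2% lower in Trem2-/- mice. The median log2 fold change of the subunits was 1.17 in WT and 1.68 in Trem2-/- mice, against -0.04 over all genes in each genotype. All D7 mice were above all D0 mice for 5 of 9 subunits in WT, against 12.9% of all genes, and for 8 of 9 in Trem2-/- mice, against 26.1%. With only the 8 WT mice in the fit, Itga2, Itga5, Itgb3 and Itgb5 were called and Itga10, Itga11, Itgav and Itgb1 were not (adjusted p of 0.0562 to 0.0773), with the same fold changes. In Trem2-/- mice 8 subunits were called under every setting tried.

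**Figure D2:**
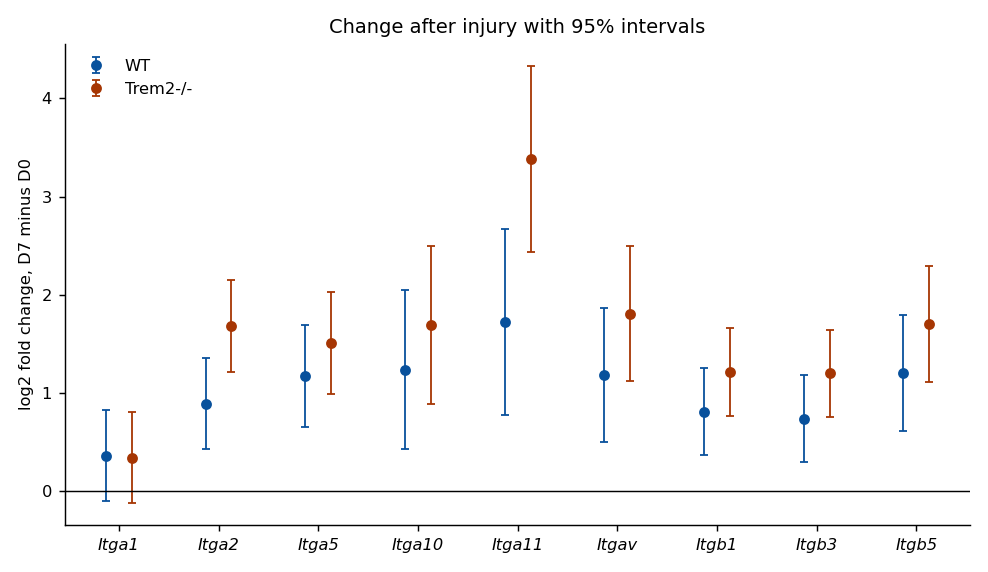
Log2 fold change at D7 against D0 (y axis) of each subunit in WT (blue) and Trem2-/- mice (brown); points are limma estimates on log2(CPM + 1) and bars 95% intervals. The intervals of Itga1 include 0 in both genotypes, and Itga11 has the largest estimate in each, 1.72 and 3.38.

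Among the collagen receptors, Itga11, a subunit of fibroblasts and other mesenchymal cells that binds fibrillar collagen, changed most (chr9:62677826-62783982, GENCODE M21 on GRCm38). Its values were 63.9, 17.0, 33.0 and 115 CPM in the 4 WT D0 mice and 161, 217, 90.8 and 166 CPM in the WT D7 mice. In Trem2-/- mice they were 37.8, 24.8, 15.3 and 24.9 CPM at D0 and 360, 257, 261 and 204 CPM at D7. Days overlapped in WT mice, through replicate 4 of D0 and replicate 3 of D7, and were far apart in Trem2-/- mice. The log2 fold change was 1.72 ± 0.45 (SE) in WT mice (limma, adjusted p = 0.0122) and 3.38 ± 0.45 in Trem2-/- mice (adjusted p = 3.9e-05), the latter a 10.4-fold change.

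Itga10, a collagen receptor subunit characteristic of chondrocytes, is at chr3:96645584-96664519. It measured 52.5, 16.0, 29.8 and 75.0 CPM at WT D0 and 92.5, 68.8, 73.5 and 134 CPM at WT D7. The Trem2-/- values were 16.2, 37.7, 26.2 and 29.9 CPM at D0 and 108, 73.9, 108 and 67.9 CPM at D7. The days overlapped in WT mice, through replicate 4 of D0, and not in Trem2-/- mice. It rose by 1.24 ± 0.38 on the log2 scale in WT mice (adjusted p = 0.0259) and by 1.69 ± 0.38 in Trem2-/- mice (adjusted p = 0.00176). The WT call was lost without WT D0 replicate 2 (log2 fold change 0.85, adjusted p = 0.0809), WT D0 replicate 3 (1.13, 0.0777), WT D7 replicate 1 (1.22, 0.0584) or WT D7 replicate 4 (1.04, 0.0789). An exon of Gm42957 overlaps Itga10 on the same strand, and reads there cannot be assigned with certainty.

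Itga2, the lowest of the group, is the collagen receptor subunit known from platelets and epithelium (chr13:114833081-114932100). WT D0 mice had 6.81, 2.77, 4.68 and 6.32 CPM and WT D7 mice 9.75, 9.86, 10.2 and 9.98 CPM. Trem2-/- mice had 4.17, 4.36, 1.85 and 4.09 CPM at D0 and 13.1, 13.5, 13.0 and 13.8 CPM at D7. The days did not overlap in either genotype, and the D7 mice of each genotype lay close together. Its log2 fold change was 0.89 ± 0.22 in WT (adjusted p = 0.00946) and 1.68 ± 0.22 in Trem2-/- mice (adjusted p = 3.7e-05).

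Itga1, a collagen receptor subunit of vascular and mesenchymal cells, was the one that was not called (chr13:114953096-115101964). It was at 114, 52.9, 67.2 and 62.1 CPM in WT D0 mice and at 110, 89.5, 87.6 and 80.1 CPM in WT D7 mice. In the Trem2-/- groups it was at 53.3, 90.5, 63.3 and 92.8 CPM at D0 and 86.7, 91.5, 82.5 and 113 CPM at D7. The groups overlapped in both genotypes. The log2 fold change was 0.36 (95% interval -0.10 to 0.82, adjusted p = 0.217) in WT and 0.34 (-0.12 to 0.80, adjusted p = 0.198) in Trem2-/- mice, so a change of up to 0.82 was within the interval. Without WT D0 replicate 1, the WT value was 0.59 and was called (limma, adjusted p = 0.0242). That mouse had the highest Itga1 and the highest mean log2 level of the endothelial list among all 16 (8.53). Over the 16 libraries, Itga1 had a Pearson's r of 0.82 with that list and 0.81 with the smooth muscle and pericyte list. The part of either list in the Itga1 result was not tested. An exon of Gm49395 overlaps Itga1 on the same strand.

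Itga5, the fibronectin receptor subunit, is at chr15:103344286-103366763. It measured 386, 171, 259 and 501 CPM in WT D0 and 649, 660, 693 and 749 CPM in WT D7 mice. In Trem2-/- mice it measured 284, 257, 205 and 317 CPM at D0 and 681, 819, 725 and 782 CPM at D7. D7 was above D0 in every mouse of both genotypes. The change was 1.17 ± 0.24 on the log2 scale in WT (adjusted p = 0.00397) and 1.51 ± 0.24 in Trem2-/- mice (adjusted p = 0.000157).

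Itgav, the alpha subunit of the vitronectin receptors, is at chr2:83724397-83806916 and shares exon sequence with Gm13684 on the opposite strand. Its levels were 174, 62.6, 88.8 and 223 CPM in WT D0, and 223, 246, 299 and 358 CPM in WT D7. Trem2-/- levels were 118, 88.9, 56.2 and 97.8 CPM at D0 and 265, 337, 302 and 331 CPM at D7. WT D0 replicate 4 just exceeded WT D7 replicate 1, and the Trem2-/- groups were apart. Itgav rose by 1.18 ± 0.32 in WT (log2, adjusted p = 0.0151) and by 1.81 ± 0.32 in Trem2-/- mice (adjusted p = 0.000329). Without WT D0 replicate 3 the WT value was 1.03 with an adjusted p of 0.0565.

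Of the beta subunits, Itgb1, the partner of all 4 collagen receptor alphas and of Itga5, is at chr8:128685654-128733200. It was at 908, 449, 578 and 847 CPM in WT D0 and at 1148, 1291, 1140 and 1115 CPM in WT D7. In Trem2-/- mice it was at 543, 747, 491 and 787 CPM at D0 and 1467, 1512, 1389 and 1462 CPM at D7. The days did not overlap. The log2 fold change was 0.81 ± 0.21 in WT (adjusted p = 0.0121) and 1.21 ± 0.21 in Trem2-/- mice (adjusted p = 0.000265).

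Itgb5, a partner of Itgav in vitronectin binding, is at chr16:33829665-33949338. WT values were 147, 61.5, 84.7 and 177 CPM at D0 and 241, 292, 204 and 271 CPM at D7, and Trem2-/- values were 73.1, 104, 62.4 and 110 CPM at D0 and 309, 268, 324 and 225 CPM at D7. All D7 mice exceeded all D0 mice of their genotype. It rose by 1.20 ± 0.28 in WT (log2, adjusted p = 0.00668) and by 1.70 ± 0.28 in Trem2-/- mice (adjusted p = 0.000165).

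Itgb3, which pairs with Itgav on osteoclasts and other cells and with Itga2b on platelets, is at chr11:104608000-104670476. It was at 40.7, 56.8, 44.8 and 66.0 CPM in WT D0 and at 84.1, 103, 91.6 and 68.5 CPM in WT D7. The Trem2-/- libraries held 69.2, 41.4, 40.8 and 33.8 CPM at D0 and 99.2, 121, 83.4 and 116 CPM at D7. The days were apart in both genotypes, in WT by a narrow margin. The change was 0.74 ± 0.21 in WT (log2, adjusted p = 0.0177) and 1.20 ± 0.21 in Trem2-/- mice (adjusted p = 0.000263). It was not called in WT without WT D0 replicate 3 (0.67, adjusted p = 0.0591) or WT D7 replicate 2 (0.65, adjusted p = 0.0518). Its platelet partner Itga2b averaged 27.9 and 16.7 CPM in WT D0 and D7 and 25.4 and 15.4 CPM in Trem2-/- D0 and D7. It was not called (limma, adjusted p = 0.101 and 0.125) and was named after its values were seen. The platelet and megakaryocyte list holds 5 genes, Itga2b included. Of these, 0 were called higher and 1 lower in WT mice, and 2 higher and 1 lower in Trem2-/- mice. Of 5 osteoclast genes, 2 were called higher in WT mice, and 4 higher and 1 lower in Trem2-/- mice. The WT calls were Ctsk and the low gene Ocstamp, which averaged 0.611 CPM in WT D0 and 1.35 CPM in WT D7. The part of the platelet and osteoclast lists in the Itgb3 result was not tested.

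Next, the genotypes were compared on each day. At D7, no subunit differed by the adjusted p (limma, lowest 0.753) and none passed the study's rule of an unadjusted p under 0.05 with a log2 fold change beyond 0.32 in either direction, which 5.72% of all genes passed. None had an unadjusted p under 0.05, and voom and edgeR called 0 by the study's rule as well. Estimates were positive for 8 of 9, with a median log2 fold change of 0.16 against 0.01 over all genes. Itga2 and Itgb1 were nevertheless higher in all 4 Trem2-/- mice than in all 4 WT mice, a separation that 3.55% of all genes showed. Itga2 averaged 13.4 ± 0.383 CPM in Trem2-/- D7 against 9.96 ± 0.210 in WT D7 (SD, n = 4), a log2 difference of 0.39 (95% interval -0.07 to 0.86). Itgb1 averaged 1457 ± 51.0 against 1173 ± 79.6 CPM, a log2 difference of 0.31 (-0.13 to 0.76). Itga11 averaged 270 ± 65.2 against 159 ± 52.0 CPM and overlapped, with a log2 difference of 0.80 (-0.15 to 1.75). The intervals use the spread shared by all 4 groups, which is wider than that within the D7 groups for Itga2 and Itgb1. The Itgb1 estimate of 0.31 lay under the fold limit of 0.32, so it could not pass the study's rule in that fit at any p. With only the D7 mice in the fit, Itga2 and Itga11 passed the study's rule (adjusted p = 0.101 and 0.181), as did 10.4% of all genes in that fit. They also did so without WT D0 replicate 2 (adjusted p = 0.559 and 0.550, 6.72% of all genes), Itga11 alone did without WT D0 replicate 4 (adjusted p = 0.638, 5.95% of all genes) and Itga2 alone without Trem2-/- D0 replicate 3 (adjusted p = 0.627, 6.10% of all genes), with unchanged differences since no D7 mouse was removed. At the same time point, 5 of 6 leukocyte genes were lower in Trem2-/- mice by the study's rule and 0 by the adjusted p. Estimates were positive for 8 of 8 fibroblast genes (median 0.24) and 0 of 6 chondrocyte genes (median -0.41), with 0 of either list passing the study's rule. The part of these lists in the D7 differences of the subunits was not tested.

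At D0, 0 of 9 subunits were called by either rule (2.15% of all genes passed the study's rule), and none had an unadjusted p under 0.05. Of the estimates 8 were negative, with a median of -0.34 against 0.00 over all genes. All 9 overlapped between genotypes. Fibroblast genes had 0 of 8 positive estimates at D0 (median -0.61) and chondrocyte genes 0 of 6 (median -1.77), and their part was not tested. The largest difference was that of Itga11, -0.86 (95% interval -1.81 to 0.09). It was -0.42 without WT D0 replicate 4 and -1.32 without WT D0 replicate 2. The WT D0 mice were spread widely: Itga11 ranged from 17.0 CPM in replicate 2 to 115 CPM in replicate 4, and Itgav from 62.6 to 223 CPM in the same mice. Their mean log2 level of the fibroblast list was 9.07, 7.37, 8.13 and 9.68 in replicates 1 to 4, so the order of Itga11 and Itgav among them was that of the list. Without WT D0 replicate 2, 6 subunits passed the study's rule as lower in Trem2-/- mice, Itga2 (-0.62), Itga5 (-0.49), Itga10 (-0.87), Itga11, Itgav (-0.79) and Itgb5 (-0.61), with adjusted p of 0.287 to 0.399. In that fit 9.35% of all genes passed it, 6.71% as lower. Without Trem2-/- D0 replicate 1, Itga11 (-1.07) and Itgb3 (-0.40) passed it, against 2.69% of all genes. With edgeR, Itga11 passed it (-1.16, adjusted p = 1.00), as did 3.54% of all genes.

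Whether injury changed the subunits more in one genotype was tested as the interaction. None passed at the adjusted p in limma, and 2 of 9 passed the study's rule, Itga2 and Itga11, against 7.79% of all genes. Itga2 rose by 0.79 ± 0.31 more on the log2 scale in Trem2-/- than in WT mice (adjusted p = 0.579). For Itga11 the extra rise was 1.66 ± 0.63 (adjusted p = 0.579). For both genes the estimate came from a lower D0 mean and a higher D7 mean in Trem2-/- mice. The estimate was positive for 8 of 9 subunits, Itga1 being at -0.02. Both genes kept the study's rule without any single mouse and under every alternative tried. Without WT D0 replicate 2, 4 others passed it too: Itga5 (0.62), Itgav (0.94), Itgb1 (0.59) and Itgb5 (0.77), while the share of all genes that passed was 17.0%. Without Trem2-/- D0 replicate 1, Itgb3 did (0.67, with 6.76% of all genes passing). Cell type markers differed by the study's rule in the same interaction: 5 of 6 leukocyte genes were lower (median of the list -0.96), 3 of 5 osteoclast genes higher (median 0.51) and 1 of 8 fibroblast genes higher (median 0.77). Their part in the results for Itga2 and Itga11 was not tested.

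Balances between subunits were compared within libraries, where scaling cancels. The log2 ratio of Itga11 to Itga1 was -0.83, -1.64, -1.03 and 0.89 in WT D0, 0.55, 1.28, 0.05 and 1.05 in WT D7, -0.49, -1.87, -2.05 and -1.90 in Trem2-/- D0, and 2.05, 1.49, 1.66 and 0.85 in Trem2-/- D7 mice. The Trem2-/- groups did not overlap, and the WT groups did through replicate 4 of D0. The mean difference between days was 3.09 in Trem2-/- mice (exact two-sided permutation test, p = 0.0286, the smallest that 70 assignments can give; 0.229 after adjustment over 8 tests) and 1.38 in WT mice (exact p = 0.0857). The differences between genotypes were 0.78 at D7 (exact p = 0.0857) and -0.93 at D0 (exact p = 0.257). The difference between the injury effects, a test added after the data were seen, was 1.71 (exact permutation p = 0.0302 over 4900 assignments).

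**Figure D3:**
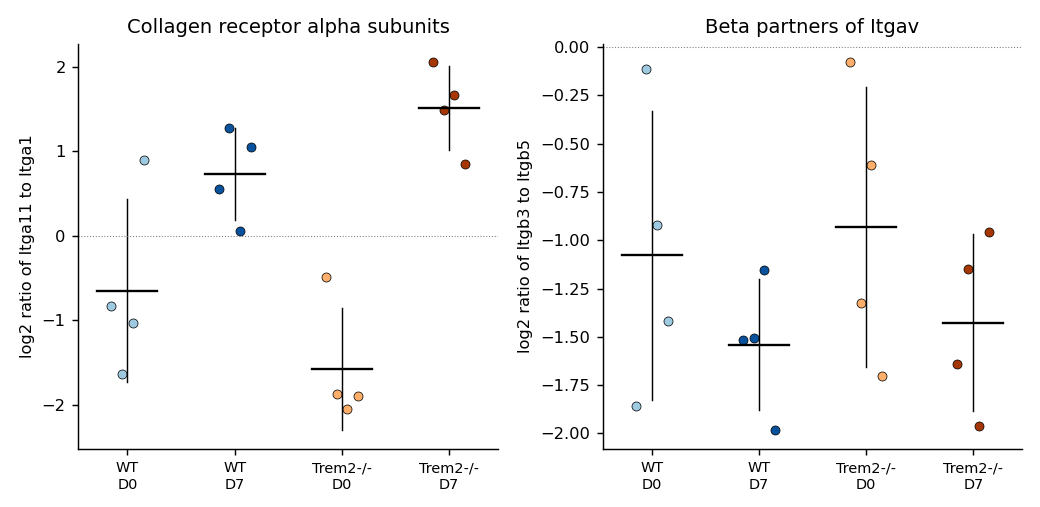
Log2 ratio of Itga11 to Itga1 (left) and of Itgb3 to Itgb5 (right) in each mouse by group; points are mice, horizontal bars are means and vertical bars SD (n = 4), and the dotted line is a ratio of 1. The left ratio is above 0 in all D7 mice and below 0 in all D0 mice except WT D0 replicate 4; on the right all mice are below 0 and the groups overlap.

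The log2 ratio of Itgb3 to Itgb5, the beta partners of Itgav, averaged -1.08 ± 0.748 in WT D0, -1.54 ± 0.340 in WT D7, -0.93 ± 0.725 in Trem2-/- D0 and -1.43 ± 0.457 in Trem2-/- D7 (SD, n = 4). All groups overlapped. The differences between days were -0.46 in WT and -0.50 in Trem2-/- mice (exact permutation p = 0.343 and 0.314), and those between genotypes 0.11 at D7 and 0.15 at D0 (exact permutation p = 0.686 and 0.714).

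Since fibroblast genes rose as well, each subunit was also expressed relative to the mean log2 level of the 8 fibroblast genes, as a description without a test. The list itself rose by 1.60 in WT and 2.54 in Trem2-/- mice on the log2 scale. Its genes rose unequally, Col1a1 by 2.85 and 4.45, Pdgfra by 1.14 and 1.80 and Dcn by 0.22 and 0.79 in WT and Trem2-/- mice. Relative values thus depend on the fibroblast genes chosen. Against the whole list, 8 of 9 subunits were lower at D7 than at D0 in each genotype. In Trem2-/- mice 7 were lower in every D7 mouse than in every D0 mouse, from -0.73 for Itgav to -2.20 for Itga1. On this scale any gene that rose less than the list has a negative mean difference. The median log2 fold change over all genes was -0.04 in Trem2-/- mice. The share of all genes that fell without overlap on this scale was not computed, so the count is not particular to the subunits. Itga10 had a mean difference of -0.85 and overlapped. Itga11 alone was higher, by 0.84, with no overlap between the days. In WT mice all 9 overlapped, with -1.24 for Itga1 and 0.12 for Itga11.

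**Figure D4:**
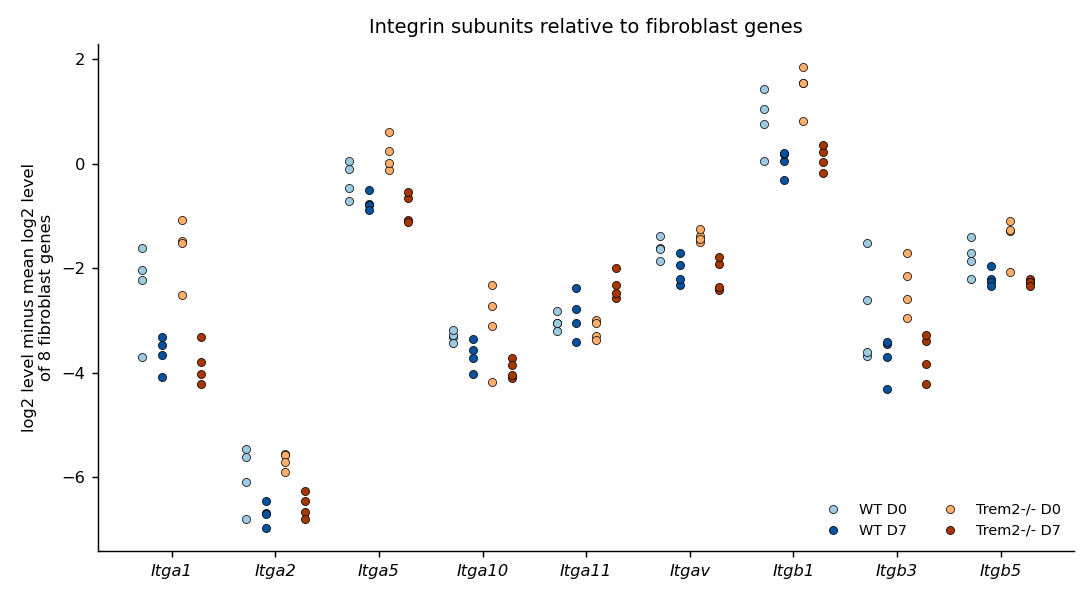
Level of each subunit in each mouse relative to 8 fibroblast genes, as log2(CPM + 1) minus the mean log2(CPM + 1) of those genes (y axis); points are mice, coloured by group. In Trem2-/- mice Itga11 is higher at D7 in all 4 mice, while 7 others are lower. Genes that rose less than the fibroblast genes fall on this scale.

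The genes whose pattern over the 16 libraries was most like that of each subunit were named by Pearson's r on the log2(CPM + 1) scale, among the 10552 genes averaging 5 CPM or more. The libraries share the difference between days, so most r values are high and are given as a description only. For Itga11 they were Prrx2 (0.996), Sorcs2 (0.994) and Mfap2 (0.991). Prrx2 is a homeobox factor of mesenchyme and Mfap2 a microfibril protein. For Itga10 they were Pitx1 (0.975), Sox9 (0.970) and Nfatc2 (0.970), of which Sox9 is the main transcription factor of chondrocytes. Itga10 was not closest to the chondrocyte list, however. Its r was 0.95 with the mean log2 level of 4 osteoblast genes (Alpl, Sp7, Dmp1, Ibsp), 0.92 with the fibroblast list and 0.91 with the chondrocyte list. Itga5 was most like Plxna1 (0.991), Nupr1 (0.991) and the matrix proteoglycan gene Bgn (0.990). Itga2 was closest to Zeb1 (0.980), Snx24 (0.978) and Sfr1 (0.977), and Itgav to Slc41a2 (0.992), Ncs1 (0.989) and Spry2 (0.986). Itgb1 was closest to the actin regulator gene Cttn (0.993), Bok (0.992) and Cacna2d1 (0.990), and Itgb5 to the Hedgehog pathway gene Smo (0.994), Maged1 (0.993) and Gpc4 (0.993). Itga1 stood with Magi1 (0.962), Map4k3 (0.955) and A430105I19Rik (0.942), and Itgb3 with Smap1 (0.952), Mtpn (0.947) and Mif (0.938), the lowest values of the 9 subunits. Between the subunits themselves, r ran from 0.239 for Itga1 and Itgb3 to 0.982 for Itga5 and Itgav.

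The integrin subunits outside the group did not follow it as a list. Of 14 tested, 1 was called higher and 3 lower in WT mice, and 1 higher and 6 lower in Trem2-/- mice. Median log2 fold changes were -0.28 and -0.51. In both genotypes the estimates were positive for 6 of the 14, Itga3, Itga6, Itga7, Itga9, Itgb4 and Itgb8. Among these, Itgb4 had 0.61 in WT (limma, adjusted p = 0.0534) and 0.42 in Trem2-/- mice (adjusted p = 0.121). Itga9 (0.40 and 0.16) and Itgb4 were named after their values were seen. Itgb2l (-1.50 in WT and -2.18 in Trem2-/- mice), Itgb7 (-1.06 and -1.92) and Itgal (-0.96 and -2.01) fell in both; Itgal and Itgb7 are leukocyte integrin subunits and Itgb2l is a relative of the leukocyte subunit Itgb2. The subunit called higher was Itgb8 in WT (0.57, adjusted p = 0.0461) and Itga7, the laminin receptor subunit of muscle, in Trem2-/- mice (0.73, adjusted p = 0.0494), both named after their values were seen. The laminin receptor subunits Itga3 and Itga6 had log2 fold changes of 0.30 and 0.29 in WT and of 0.29 and 0.21 in Trem2-/- mice and were not called, and were also named after their values were seen. At D7, 5 of the 14 were lower in Trem2-/- than in WT mice by the study's rule, as were 597 of all 13173 genes. Among the 5 was Itgal (-0.83, limma, adjusted p = 0.514), and 0 of the 14 passed at the adjusted p.

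**Figure D5:**
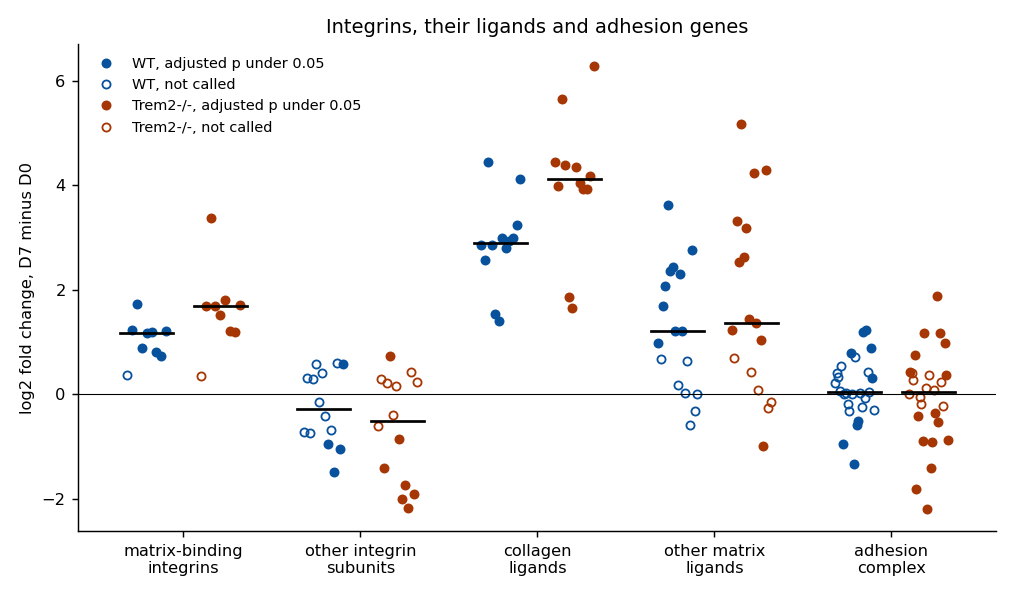
Log2 fold change at D7 against D0 (y axis) of every tested gene in 5 lists, in WT (blue) and Trem2-/- mice (brown); filled points have an adjusted p under 0.05 and black bars are medians. The 12 collagen ligand genes are all called higher in both genotypes, while the other integrin subunits and the adhesion complex fall on both sides of 0.

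The collagens that these receptors bind moved together. Of 12 collagen genes, 12 were called higher in WT and 12 in Trem2-/- mice, with median log2 fold changes of 2.89 and 4.12. The cartilage collagen genes Col9a1 (4.13 and 6.28) and Col2a1 (4.45 and 5.65) and the microfibrillar collagen gene Col6a3 (3.24 and 4.18) had the largest means over both genotypes, although in Trem2-/- mice Col1a1, Col3a1 and Col5a1 (4.35 to 4.45) exceeded Col6a3. Col1a1 and Col1a2 are also in the fibroblast list, and Col2a1 and Col9a1 in the chondrocyte list. Of 17 genes for fibronectin, vitronectin and other ligands of the Itga5 and Itgav receptors, 10 were called higher in WT mice, and 11 higher and 1 lower in Trem2-/- mice, with medians of 1.21 and 1.36. Leading them were the fibrillin Fbn2 (3.63 and 5.18), the wound matrix protein gene Tnc (2.76 and 4.29) and Postn, a matrix protein gene of fibroblasts and periosteum (2.30 and 4.23). The fibronectin gene Fn1 rose by 2.36 in WT and 2.62 in Trem2-/- mice and the osteopontin gene Spp1 by 1.21 and 1.36, whereas the vitronectin gene Vtn had -0.33 and -0.27 and was not called in either. These 3 were named after their values were seen.

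Genes of the intracellular adhesion complex split, as did the tested genes at large. For WT, 15.9% of all genes were called higher and 12.6% lower. The matching Trem2-/- shares were 26.0% and 27.2%. Calls in both directions are thus not particular to the adhesion genes, and an excess among them was not tested. Of 26 tested, 5 were called higher and 4 lower in WT mice, and 7 higher and 9 lower in Trem2-/- mice, with medians of 0.04 in both. The kinase gene Src (1.19 in WT and 1.88 in Trem2-/- mice), Tln2 (1.23 and 1.17), one of the talins that bind the beta tail, and Parva (0.79 and 1.17), a partner of integrin-linked kinase, rose in both genotypes. The parvin of blood cells Parvg (-1.34 and -2.20), the kindlin of blood cells Fermt3 (-0.95 and -1.81) and the kinase gene Ptk2b (-0.59 and -1.41) fell in both. The main talin, Tln1, was at -0.06 in WT mice and was not called, and was called lower in Trem2-/- mice (-0.54, adjusted p = 0.00410). Integrin-linked kinase, Ilk, was at 0.03 and -0.05 and was not called in either genotype. Both were named after their values were seen.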

How the data were processed

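Bulk RNA-seq of knee joint cells was analysed in 16 libraries, 4 per genotype (WT, Trem2-/-) and day (D0, D7), grouped by the genotype and injury labels. The labels number the replicates without stating that each is a separate mouse, as is assumed here; otherwise p-values would measure only technical spread. The deposited signal values were made by the authors with STAR (mm10), featureCounts and edgeR: CPM relative to library size and TMM factor. Versions, annotation and strand setting are not given in the sources used here. All values (100%) were whole multiples of the value of 1 read within a tolerance of 0.1 reads, so reads were recovered. Fcgr1, listed on 2 rows with identical values, was counted once. No replicate pair agreed within sampling noise (the chi-square divided by its degrees of freedom was 10.3 or more).

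Values were compared as log2(CPM + 1), which understates changes of low genes, with limma 3.58.1 (eBayes with trend, R 4.3.3) in one fit of 4 groups over 13173 genes that reached 1 CPM in 4 or more libraries, with Benjamini-Hochberg adjustment. Injury calls used an adjusted p under 0.05, genotype and interaction calls also the study's rule, p under 0.05 and a fold change over 1.25. Ratios were tested by exact two-sided permutation (scipy 1.17.1). Simulated counts covered 13054 genes (D7 minus D0 in WT), with the same relative spread between libraries for every gene. On these the fit called 31.3% of 67 genes changed 1.5-fold, 97.0% of 67 changed 2-fold and 100% of 66 changed 4-fold. It called 0.0700% of 12854 unchanged genes. Itga11 in WT D0 varied more than simulated, with an SD of 43.4 CPM around a mean of 57.3. So did every other subunit in WT D0, for example Itga10 (25.9 around 43.3) and Itgav (74.6 around 137). Itgb3 came closest to the simulated spread (11.5 around 52.1). The shares called thus do not hold for the subunits or for other genes that vary so much.

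The subunits and gene lists were chosen with earlier results of these data known. All 9 subunits are named, as are up to 3 genes per direction of each other list with the largest mean log2 fold change among genes called in both genotypes, and the 3 genes with the highest Pearson's r with each subunit; exceptions are stated. Itgam, Itgax, Itgb6, Fermt1 and Itgb1bp1 were not analysed here, and Itgae was below the filter. Gene positions and exon lengths are from GENCODE M21 (GRCm38), start regions from RefSeq (GRCm38.p6). Alternatives were pseudocounts of 0.1 and 5, no filter, a mean of at least 5 CPM, quantile and median-of-ratios scaling, only the groups compared in the fit, no trend, a block for the replicate number, each mouse left out, and voom and edgeR 4.0.16 quasi-likelihood on recovered reads. The floor of 3 reads covers counting error only, while the limma intervals use the spread between libraries of a group.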

Additional observations from a re-analysis of the deposited data

Results flagged for a closer look

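For 3 measures the interaction of genotype and injury had an unadjusted p under 0.05. It was 0.79 on the log2 scale for Itga2 (limma, p = 0.0214, adjusted p = 0.579), 1.66 for Itga11 (p = 0.0185, adjusted p = 0.579) and 1.71 for the log2 ratio of Itga11 to Itga1 (exact permutation p = 0.0302, a test added after the data were seen and not adjusted). Neither gene passed adjustment over all genes. Over the alternatives, the adjusted p ranged from 0.140 to 0.987 for both Itga2 and Itga11.

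In 4 of 132 sets of 4 mice, 1 mouse stood far from the other 3, judged by its gap to the nearest as a share of the whole range. Chance gives about 6.6 such sets. Itga2 in Trem2-/- D0 replicate 3 was 1.85 CPM against 4.09 to 4.36 CPM in the others (share 0.894). The log2 ratio of Itga11 to Itga1 in Trem2-/- D0 replicate 1 was -0.49 against -2.05 to -1.87 (0.886). The mean log2 level of the smooth muscle and pericyte list in Trem2-/- D7 replicate 2 was 7.47 against 7.24 to 7.27 (0.877), and that of the B cell list in WT D7 replicate 4 was 3.65 against 4.48 to 4.65 (0.832).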

How the results depend on the processing

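The count of 8 subunits called after injury in Trem2-/- mice was found under every alternative and without each mouse. The WT count of 8 was 4 when the fit held only the groups compared (8.76% of all genes were called higher) and ranged from 5 (without WT D0 replicate 3, 9.98%) to 9 (without WT D0 replicate 1, 19.9%) when single mice were left out. By the study's rule, the count of subunits differing between genotypes at D7 was 2 with only the groups compared and 0 to 2 without single mice (2 without WT D0 replicate 2, 1 without either Trem2-/- D0 replicate 3 or replicate 4 of WT D0). At D0 it was 1 with edgeR and 0 to 6 without single mice (6 without WT D0 replicate 2, 2 without Trem2-/- D0 replicate 1), and the interaction count was 2 to 6 (6 without WT D0 replicate 2). The ratio of Itga11 to Itga1 in Trem2-/- mice differed by 2.91 to 3.45 without single mice (p = 0.0571 by exact permutation, the smallest possible there). Genotype differences near 0 changed sign without single mice, over ranges of -0.071 to 0.114 for Itga1 and -0.15 to 0.17 for Itga10 at D7, and -0.10 to 0.27 for Itga1, -0.488 to 0.026 for Itga5 and -0.279 to 0.060 for Itgb1 at D0. For the ratio of Itgb3 to Itgb5 the ranges were -0.042 to 0.292 at D7 and -0.14 to 0.47 at D0. The interaction of Itga1 ran from -0.24 to 0.12 and was 0.00375 with edgeR. The cause of these changes was not tested, apart from the fewer mice in each fit.

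With the replicate number as a block, the ratio difference of 3.09 in Trem2-/- mice had an exact p = 0.125, the smallest possible with 4 pairs, and the block changed no count of subunits called. The numbers do not pair the mice: 11 of 24 correlations of same-numbered deviations exceeded 0.1 (range -0.51 to 0.41), and 0 mice correlated best with their own number in every other group. The depth leaves all subunits well above the limit of 3 reads.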
